A study of Mus musculus with 18 samples.

Results

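Dorsal root ganglia (DRG) of mice carrying a bone-marrow myeloma were compared with DRG of control mice, using the MM libraries in which tumour RNA was scarce. Members were selected on their measured share of Ighg2b, the immunoglobulin heavy chain transcript of the tumour line: an MM library was taken when Ighg2b stood at or below 1000 RPM (reads of this gene for every 1000000 estimated reads). By that limit 6 of 18 libraries were members (MM1, MM2, MM3, MM4, MM6 and MM7, here the low-load MM libraries), and they were set against all 9 SHAM libraries, 15 libraries in all. The MM mice had been given 5TGM1-GFP myeloma cells, a GFP-marked mouse plasma cell tumour line, into 1 femur, and the SHAM mice the vehicle alone. All mice in both groups were males of the strain C57BL/KaLwRijHsd, labelled as 5 to 7 weeks of age. Whole ganglia of lumbar levels 2, 3 and 4 on the inoculated side were taken on day 24 after surgery. The series design gives 9 MM and 9 SHAM mice, so each library was taken as 1 mouse. The labels name no batch, and the tumour line is the only one used.

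Ighg2b was at 353.56 RPM in MM1, 11.421 in MM2, 375.0 in MM3, 386.863 in MM4, 254.741 in MM6 and 103.797 in MM7. The member just inside the limit was therefore MM4, and the library just outside it was MM5, at 2279.895 RPM. MM8 (2324.21) and MM9 (4375.296) also lay outside. SHAM libraries ranged from 0.099 to 15.938 RPM, and SHAM5 (14.561) and SHAM9 (15.938) exceeded MM2. Where the Ighg2b reads of SHAM5 and SHAM9 came from, and whether MM2 held tumour cells, was not tested. The limit acts on the tumour transcript, so levels of Ighg2b and of other plasma cell genes in these libraries are given as a description. They are part of the table that was fitted and of its counts of calls, and nothing is read from their calls.

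**Figure D1:**
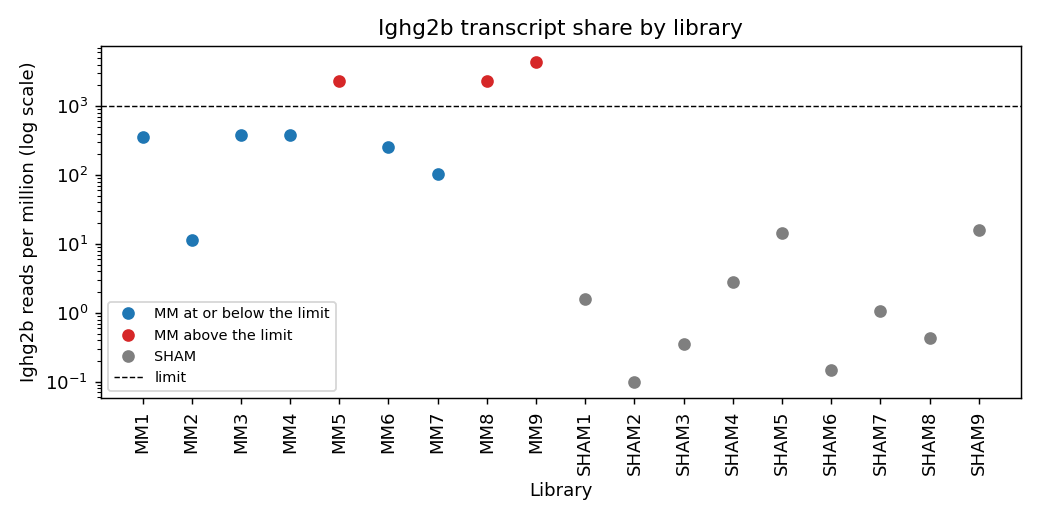
Ighg2b level in RPM on a log axis, 1 point per library, with the limit of 1000 as a dashed line. The 6 MM libraries at or below the limit lie between 11.421 and 386.863, the 3 above it between 2279.895 and 4375.296, and MM2 lies within the SHAM range.

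Interferons are secreted alarm proteins of the antiviral and antitumour response. Type I interferon acts through the factor ISGF3, which holds IRF9 and binds interferon-stimulated response elements in promoters and turns on genes such as Irf7, the Oas family and the helicase sensors. Sensory ganglia hold neuron cell bodies, satellite glia, Schwann cells, vessels and resident macrophages, and these cells as well as tumour cells can respond to interferon. B lymphocytes carry CD20 (Ms4a1) and the factor Pax5, which are lost as a B cell becomes a plasma cell, while plasma cells carry Irf4, Prdm1 and secreted immunoglobulin.

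The promoters of the genes that rose were searched for the core of the response element, the letters GAAANNGAAA on both strands. Promoter sequences were taken from RefSeq on the build GRCm38.p6 and covered 250 bases before to 50 bases after each gene's start. The core was present in 8 of 35 risen genes that had a promoter (22.9%): Cdca3, Ctss, Fcgr4, Gm11127, Ifi206, Ifi213, Oas1a and Wdr31. Of all 27025 genes with a promoter, 1079 held it (3.99%), as did 446 of the 11933 tested genes with one (3.74%). In the interferon response list 13 of 24 promoters held it (54.2%), but only 1 of the 6 for members that rose (16.7%). The 100 bases before the start are shown for 5 immune genes that rose and hold the core there, 5′ to 3′ on the strand of the gene. Capitals mark the core, and in Oas1a 2 overlapping copies. Ifi213 and Ifi206 lie in 1 gene family on chromosome 1 and share a run of 49 bases around the core. Positions of the core are those of its first base, counted from the RefSeq start. The bases after that start were found in a GENCODE transcript of the gene for the other 4 but not for Ifi206, so its position holds for the RefSeq start only.
Ifi213 (chr1:173599273-173599372, minus strand, core from -73): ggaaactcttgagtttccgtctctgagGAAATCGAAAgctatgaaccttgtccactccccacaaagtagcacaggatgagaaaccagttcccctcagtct
Ifi206 (chr1:173491319-173491418, minus strand, core from -40): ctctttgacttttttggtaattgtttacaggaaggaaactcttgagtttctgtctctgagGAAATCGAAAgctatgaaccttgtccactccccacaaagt
Oas1a (chr5:120907526-120907625, minus strand, cores from -20 and -14): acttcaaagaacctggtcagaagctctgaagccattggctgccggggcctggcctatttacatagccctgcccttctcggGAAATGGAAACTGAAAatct
Fcgr4 (chr1:171018826-171018925, plus strand, core from -73): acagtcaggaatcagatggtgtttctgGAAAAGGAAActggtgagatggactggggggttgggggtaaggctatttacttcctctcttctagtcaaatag
Ctss (chr3:95526686-95526785, plus strand, core from -21): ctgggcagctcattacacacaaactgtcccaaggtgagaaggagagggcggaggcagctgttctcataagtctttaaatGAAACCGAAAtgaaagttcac

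The 15 libraries held between 19218249 and 21771206 estimated reads. The ganglion's defining markers were present in every one: the pan-neuronal genes Tubb3 (1971 to 2561 CPM, counts for every 1000000 after scaling between libraries) and Prph, the sensory factor Isl1 (55.6 to 82.7 CPM) and the satellite glia gene Fabp7 (62.7 to 141 CPM). Samsn1, a gene that KaLwRij mice lack, had 1 read over all 18 libraries. On the first principal component, SHAM8 stood farthest from the others and carried skeletal muscle and fat transcripts (Ttn 2102 CPM, Adipoq 8.444 CPM). SHAM6 had the most globin RNA and the most Pax5 and Spib of the libraries compared. Calls that depend on these libraries are given below with and without them.

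Across 15995 tested genes, 53 rose (0.331%) and 7 fell (0.0438%) at a Benjamini-Hochberg adjusted p under 0.05 in edgeR's quasi-likelihood test. At an unadjusted p under 0.05, 863 genes were higher (5.4%) and 640 were lower (4%). Every low-load MM library lay above every SHAM library for 21 genes (0.131%) and below for 16 (0.1%), and 13 of the 53 risen and 7 of the 7 fallen genes were among them. The median log2 fold change of all tested genes was -0.0062. The risen genes comprised 8 of the interferon response list, 3 of the antigen presentation list, 1 of the cell cycle list, 1 of the macrophage list and others outside any list. A further 6 stood in the B, plasma and myeloma cell list, whose plasma cell genes follow the transcript that the rule used, and 2 of that list's 17 measured members fell. Outside that list the immunoglobulin variable genes Ighv1-54 and Igkv10-96 and the B lineage genes Blnk and Il5ra also rose. The 6 are therefore not all the risen genes of the tumour lineage. The fallen genes included the B lymphocyte genes Ms4a1, Pax5 and Spib and the globin genes Hbb-bt, Hba-a1 and Hba-a2. Leaving out 1 library changed the number that rose to between 25 (without MM4) and 187 (without MM2), with 186 without SHAM6, and the number that fell to between 2 (without MM1) and 32 (without SHAM6). Of these 15 fits none ended the call of 24 of the 53 risen and 2 of the 7 fallen genes, although Lax1 and Il5ra were tested in only 14.

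The transcripts of the tumour lineage itself were still visible in 5 of the 6 low-load MM libraries. Igkc encodes the constant part of the kappa light chain. It was at 336, 362, 288, 219 and 78.7 CPM in MM1, MM3, MM4, MM6 and MM7, at 11.7 CPM in MM2, and at most 14.8 CPM in SHAM. Irf4 (ENSMUSG00000021356), the master regulator of plasma cell identity, ran from 1.03 CPM in MM2 to 12.9 CPM in MM3, with a median of 8.71, against 0.35 to 1.64 CPM in SHAM. Pou2af1, a B lineage coactivator, had a median of 8.39 CPM against 0.72 CPM in SHAM, and Prdm1, which drives plasma cell differentiation, 1.81 CPM against 0.386 CPM. In each of these genes MM2 alone lay inside the SHAM range. For the cell cycle list, the summed level was 72.0 to 136 CPM in low-load MM, lowest in MM2, and 64.4 to 99.9 CPM in SHAM. Here MM7 (88.5 CPM) lay inside the SHAM range as well as MM2, and the other 4 lay above it. Of its 20 members all had a positive fold change, 17 passed an unadjusted p under 0.05 and 1 was called, the cyclin Ccnb1, with 0.491 CPM in MM2, 1.09 to 3.51 CPM in the other 5 and at most 0.602 CPM in SHAM. Called members numbered 8 without MM2, 6 without SHAM6, 3 without MM7, 2 without SHAM5 or without SHAM7, and 6 by DESeq2. Without SHAM7 and SHAM8 together edgeR called 0, with 16 at an unadjusted p under 0.05. Outside the list, other genes of cell division or DNA replication rose as well: Cdca3, Prc1, Pclaf, Sgo1 and Prim1. They were called in 15, 4, 4, 3 and 7 of the 15 fits that left out 1 library. For Cdca3 and Prim1 the groups did not overlap, and for Prc1, Pclaf and Sgo1 MM2 lay inside the SHAM range.

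Sensors and factors of the interferon response rose, among them Irf7, Irf9, Ifi44 and Oas1a. Of 36 measured members 8 rose and 0 fell, 35 had a positive fold change, and 27 passed an unadjusted p under 0.05 upward and 0 downward. The list's median log2 fold change was 0.56. Its level, the mean log2 CPM of its members, was 3.8 in MM1, 3.278 in MM2, 3.55 in MM3, 3.805 in MM4, 3.348 in MM6 and 3.825 in MM7, and ran from 2.589 to 3.435 in SHAM. MM1, MM3, MM4 and MM7 thus lay above every control, while MM2 and MM6 lay below SHAM4, the highest control, and SHAM6 (3.397).

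Irf7 (ENSMUSG00000025498), the factor that amplifies type I interferon production, ran from 11.1 to 24.9 CPM in low-load MM with a median of 18.5, and from 4.85 to 11.3 CPM in SHAM with a median of 5.6. The groups overlapped only in MM6 (11.1 CPM) against SHAM4 (11.3 CPM), and MM2 stood at 13.0 CPM. Its log2 fold change was 1.41 ± 0.21 (SE; edgeR adjusted p = 0.009572), and the call held in each of the 15 fits that left out 1 library. Ifi44 (ENSMUSG00000028037), an interferon-induced antiviral gene, had 3.01 to 7.35 CPM (median 5.16) against 1.21 to 2.88 CPM (median 1.93), with no overlap and with MM2 at 4.52 CPM. Its log2 fold change was 1.39 ± 0.22 (SE; edgeR adjusted p = 0.01128), again called in all 15 fits. Irf9 (ENSMUSG00000002325), the DNA-binding part of ISGF3, was at 24.9, 21.9, 25.8, 25.8, 22.5 and 31.1 CPM in MM1, MM2, MM3, MM4, MM6 and MM7 and at 14.6 to 21.9 CPM in SHAM (median 16.7). The groups met at MM2 and SHAM6. The log2 fold change of Irf9 was 0.53 ± 0.09 (SE; edgeR adjusted p = 0.01308), called in all 15 fits.

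The other 5 risen members kept their call in fewer of these fits. Oas1a, an antiviral sensor of double-stranded RNA, had 2.95 to 5.49 CPM against 1.4 to 2.87 CPM in SHAM, with no overlap (log2 fold change 0.86 ± 0.17, edgeR adjusted p = 0.03483). Its call held in 7 of the 15 fits and was weakest without MM4 (adjusted p = 0.1098). Oasl2, a relative of the Oas enzymes, had 60.3 to 110 CPM against 42.7 to 64.1 CPM, with MM2 and MM6 (61.4 CPM) inside the SHAM range (log2 fold change 0.68, edgeR adjusted p = 0.04397). Rtp4, Dhx58 (the RNA helicase LGP2) and Lgals3bp rose by 0.94, 0.96 and 0.39 on the log2 scale. Oasl2, Lgals3bp, Rtp4 and Dhx58 were called in 4, 5, 3 and 3 of the 15 fits, and each of them in the fits without MM2 and without SHAM6. Without MM2 the list had 11 called members and without SHAM6 12, against 3 without MM1, MM3, MM4, MM7, SHAM1, SHAM2 or SHAM9. Leaving out SHAM5 and SHAM9, the controls with the most Ighg2b, left 2, leaving out SHAM7 and SHAM8 left 3, and DESeq2 called 14. Without SHAM5 and SHAM9, Irf7 and Irf9 passed (edgeR adjusted p = 0.04576 and 0.04406) and Ifi44 did not (0.05112). Without SHAM7 and SHAM8, Irf7 and Ifi44 passed (edgeR adjusted p = 0.04539 and 0.0243) and Irf9 did not (0.05758).

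**Figure D2:**
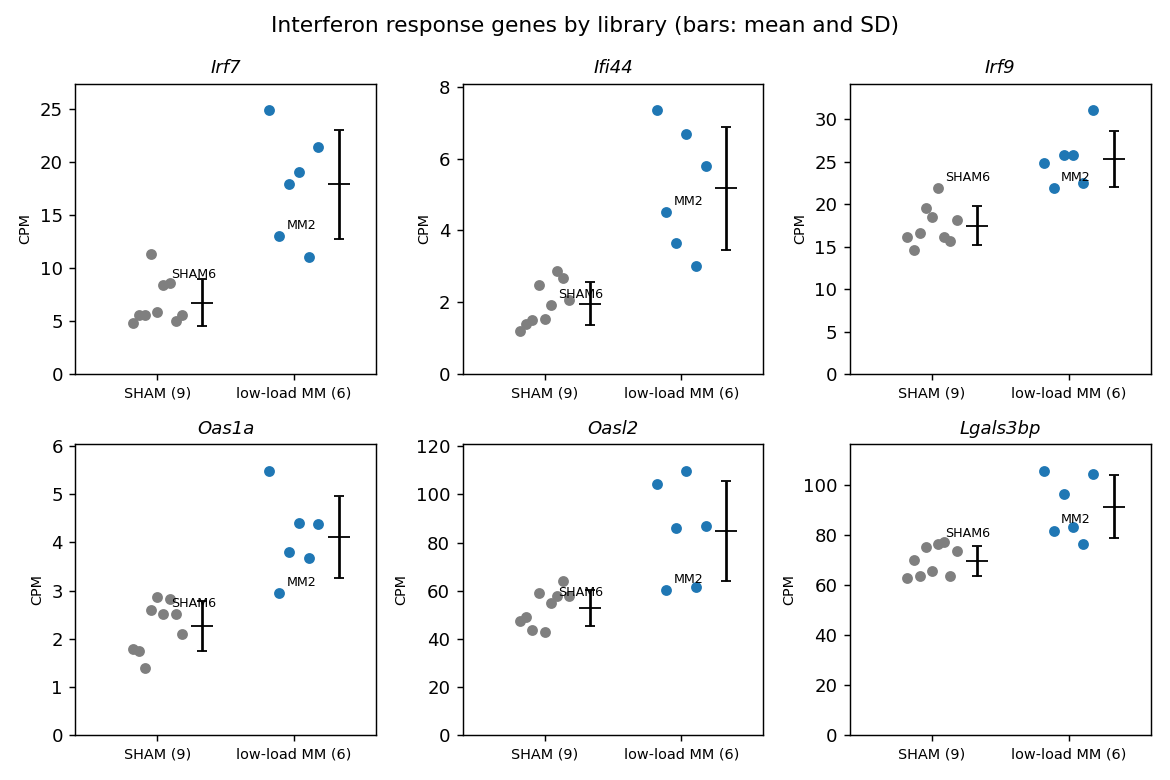
CPM of 6 interferon response genes, 1 point per library, for SHAM (9 libraries) and low-load MM (6 libraries), with bars for the mean and SD. Ifi44 and Oas1a do not overlap between the groups, and in the other 4 genes the highest control reaches the lowest low-load MM library.

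The members that did not pass were also mostly positive. Zbp1, a sensor of left-handed nucleic acid, had 1.28 to 5.83 CPM against 0.367 to 1.9 CPM (log2 fold change 1.47 ± 0.32, edgeR adjusted p = 0.06094), with MM2 the only member inside the SHAM range. Isg15, the ubiquitin-like modifier, had a log2 fold change of 0.80 ± 0.22 (edgeR adjusted p = 0.1569), and Ifit1, which binds foreign RNA, 0.64 ± 0.26 (edgeR adjusted p = 0.4274). Mx1, an interferon-induced GTPase gene, was the only member with a negative value, at -0.26 ± 0.43. Among 14 interferon-inducible GTPases, which act against intracellular pathogens, 0 passed the edgeR test although 14 had positive fold changes and 8 an unadjusted p under 0.05. Their median log2 fold change was 0.43, and DESeq2 called 1 of them. Gbp3 had the lowest p in that list, with 8.92 to 17.2 CPM against 5.32 to 10.1 CPM (log2 fold change 0.62, edgeR adjusted p = 0.1589).

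Genes of the interferon-induced Ifi200 family on chromosome 1 stood in no list and were picked after their values were seen. Of 9 tested genes with symbols between Ifi203 and Ifi213, 3 rose, 0 fell and 7 were higher at an unadjusted p under 0.05, with a median log2 fold change of 1.16. Ifi213 (ENSMUSG00000073491) was at 2.21, 1.77, 2.61, 3.68, 1.27 and 1.52 CPM in MM1, MM2, MM3, MM4, MM6 and MM7 and at 0.35 to 1.12 CPM in SHAM. The groups did not overlap, and the log2 fold change was 1.76 ± 0.27 (SE; edgeR adjusted p = 0.009572), called in all 15 fits. Ifi206 had 0.989 to 2.23 CPM against 0.149 to 0.898 CPM, also without overlap, and Ifi204 had 3.39 to 6.77 CPM against 1.48 to 4.54 CPM. Both were called in 3 of the 15 fits (edgeR adjusted p = 0.04523 and 0.04911 with all libraries). Members of a gene family can share sequence, so reads can be divided wrongly between them, which was not tested here.

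Antigen presentation gave 3 calls, all in class I, which displays peptides from inside the cell. Of 19 members 3 rose (H2-K1, H2-Q6 and H2-Q7), 0 fell, and 12 passed an unadjusted p under 0.05 upward, with a median log2 fold change of 0.49. Called members numbered 8 without MM2, 6 without SHAM6 and 7 by DESeq2, 3 without MM7 or SHAM2, and 1 in each of the other 11 fits that left out 1 library. Without SHAM7 and SHAM8 together edgeR called 0, with 11 at an unadjusted p under 0.05. H2-K1 (ENSMUSG00000061232), a classical class I heavy chain, was at 134, 59.0, 139, 135, 128 and 102 CPM in MM1, MM2, MM3, MM4, MM6 and MM7, against 43.1 to 77.7 CPM in SHAM. MM2 lay inside the SHAM range and the other 5 above it (log2 fold change 0.92 ± 0.17, edgeR adjusted p = 0.0368). H2-Q6 had a median of 15.8 CPM against 3.06 CPM, with MM2 at 3.78 CPM inside the SHAM range (log2 fold change 2.18, edgeR adjusted p = 0.01232). H2-Q5, a neighbour of the same family outside the list, did not overlap between groups (0.589 to 1.98 CPM against 0.139 to 0.53 CPM). H2-K1 and H2-Q7 were each called in 4 of the 15 fits, with adjusted p up to 0.1277 and 0.1365 without MM4, while H2-Q6 was called in all. B2m, the class I light chain, had 245 to 409 CPM against 157 to 348 CPM (edgeR adjusted p = 0.6059), and the class II genes H2-Aa, H2-Ab1, H2-Eb1 and Cd74 had log2 fold changes of 0.06, 0.12, 0.15 and 0.21, none called. H2-Q genes are near copies, so the division of reads among them is uncertain.

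Myeloid genes gave few calls. Of 20 macrophage markers 1 rose, Ctss, the lysosomal protease cathepsin S, with 8.69 to 26.3 CPM against 5.8 to 15.8 CPM (log2 fold change 1.22 ± 0.25, edgeR adjusted p = 0.04911). It was called in 2 of the 15 fits, those without MM2 and without SHAM6. The list had 16 members with a positive fold change, 8 of them at an unadjusted p under 0.05, and a median log2 fold change of 0.39. Called members numbered 6 without SHAM6, 3 without MM2 and 3 by DESeq2. At an unadjusted p under 0.05, 0 members were lower. Its members Csf1r (16.8 against 15.9 CPM), Adgre1, Cx3cr1 and Tyrobp had log2 fold changes between -0.31 and 0.30, all below the list's median. No low-load MM library had a list level above that of SHAM6, the highest control. Outside the list, Ms4a6d, a membrane gene of the monocyte lineage, did not overlap (1.52 to 3.48 CPM against 0.367 to 1.35 CPM, log2 fold change 1.57, edgeR adjusted p = 0.01232). Fcgr4, an activating antibody receptor of monocytes and macrophages, was at 2.11, 0.393, 2.66, 1.5, 1.84 and 1.43 CPM in MM1, MM2, MM3, MM4, MM6 and MM7, against 0.248 to 0.675 CPM in SHAM. Both were called in all 15 fits, and for Fcgr4 MM2 alone lay inside the SHAM range. Fcgr4 did not pass without SHAM5 and SHAM9 or without SHAM7 and SHAM8 (edgeR adjusted p = 0.05718 and 0.05724). Ms4a6d passed in both (edgeR adjusted p = 0.03639 and 0.04539). In bulk tissue, more or fewer cells of a type and more or less RNA per cell cannot be told apart.

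The B lymphocyte genes Ms4a1, Pax5 and Spib fell, and each was below every control in every low-load MM library, MM2 included. Ms4a1 (ENSMUSG00000024673), which encodes the B cell surface protein CD20, was at 0.147, 0.0982, 0, 0.145, 0.0471 and 0.0951 CPM in MM1, MM2, MM3, MM4, MM6 and MM7, and at 0.315 to 2.93 CPM in SHAM with a median of 1.2. That was 11 reads over the 6 libraries, 0 to 3 in each, against 248 reads over the 9 controls, 6 to 60 in each. Counts of 3 reads correspond to between 0.138 and 0.156 CPM. The log2 fold change of Ms4a1 was -3.86 ± 0.55 (SE; edgeR adjusted p = 0.009572), and it was called in all 15 fits. Pax5 (ENSMUSG00000014030), the factor that fixes B cell identity, had 0.143 to 0.436 CPM (34 reads) against 0.629 to 2.94 CPM (263 reads), with a log2 fold change of -2.38 ± 0.37 (SE; edgeR adjusted p = 0.009572), called in all 15 fits. Without SHAM7 and SHAM8, Ms4a1 and Pax5 still passed (edgeR adjusted p = 0.001588 and 0.0243). Spib, an Ets factor of B cells, had 41 reads against 375 (log2 fold change -2.62 ± 0.51, edgeR adjusted p = 0.03896), called in 6 of the 15 fits and weakest without MM4 (adjusted p = 0.1365).

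Of other genes of the B lineage, Cd79a, Cd22 and Ighd had lower values without passing, and Cd79b did not. Cd79a, a signalling chain of the B cell receptor, was at 1.6 to 2.3 CPM against 2.36 to 7.76 CPM, without overlap (log2 fold change -1.01 ± 0.25, edgeR adjusted p = 0.1163). Cd22 had 31 reads against 159 and Ighd, the heavy chain of mature naive B cells, 14 against 153 (edgeR adjusted p = 0.06401 and 0.06399). Cd79b, the partner of Cd79a, had 202 reads against 241 and overlapped widely. The libraries above the limit, which were not in this comparison, did not share the low values throughout: Ms4a1 was at 1.26, 0 and 1.01 CPM and Pax5 at 1.4, 0.882 and 1.52 CPM in MM5, MM8 and MM9.

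Globin genes fell too. Hba-a1 (ENSMUSG00000069919), an alpha globin, was at 11.0, 32.8, 17.0, 26.1, 19.4 and 42.6 CPM in MM1, MM2, MM3, MM4, MM6 and MM7, and at 60.4 to 757 CPM in SHAM with a median of 125. All 6 lay below every control, as did MM8 (38.1 CPM) and MM9 (24.8 CPM) outside the comparison. MM5 (60.3 CPM) was level with the lowest control. The libraries outside the comparison were scaled in a separate step over all 18 libraries, so a gap that small cannot be read. The log2 fold change was -3.10 ± 0.61 (SE; edgeR adjusted p = 0.04911). Hbb-bt, a beta globin, had 2.6 to 10.1 CPM against 18.8 to 219 CPM (log2 fold change -3.43 ± 0.62, edgeR adjusted p = 0.03548). Of 9 red cell genes 3 fell, 8 were lower at an unadjusted p under 0.05 and 5 did not overlap between groups, with a median log2 fold change of -3.01. Alas2, which starts haem synthesis in red cell precursors, had 0.996 to 3.09 CPM against 3.75 to 44.6 CPM (edgeR adjusted p = 0.05493). Hbb-bt was called in 7 of the 15 fits and Hba-a1 and Hba-a2 in 3 each, with adjusted p up to 0.1175, 0.1594 and 0.1627 without MM3. Without SHAM6, the control with the most globin, 6 red cell genes fell (Hba-a1 adjusted p = 0.01548), and DESeq2 called 7. Without SHAM5 and SHAM9, or without SHAM7 and SHAM8, Hba-a1 did not pass (edgeR adjusted p = 0.1449 and 0.07831). Globin pairs are near copies and do not count as separate measurements.

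Marker lists of blood and neighbouring tissues differed in how far the groups overlapped. The erythroid level (mean log2 CPM of 9 genes) was 1.945 to 3.177 in low-load MM and 3.397 to 6.551 in SHAM, and the adipocyte level (7 genes) -0.852 to 0.26 against -0.004 to 4.559, with 4 of 6 below the lowest control. Of the 7 adipocyte genes 0 passed the edgeR test, 6 were lower at an unadjusted p under 0.05 and DESeq2 called 4; Adipoq, the fat hormone adiponectin, had 0.0942 to 0.295 CPM against 0.257 to 8.44 CPM. Of 12 neutrophil genes 0 passed, 4 were lower at an unadjusted p under 0.05 and DESeq2 called 0, with S100a9 at 3.58 to 11.0 CPM against 5.05 to 69.8 CPM. Skeletal muscle levels overlapped fully (1.029 to 7.15 against -0.838 to 10.256) and were highest in SHAM8, SHAM7 and MM6. Bone and cartilage levels (8 genes) were 0.912 to 1.757 in low-load MM and 0.563 to 1.234 in SHAM. No tested gene of these lists was at 0 in a whole group. The part of blood and adjacent tissue in the falls of Ms4a1, Pax5 and Spib was not tested.

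**Figure D3:**
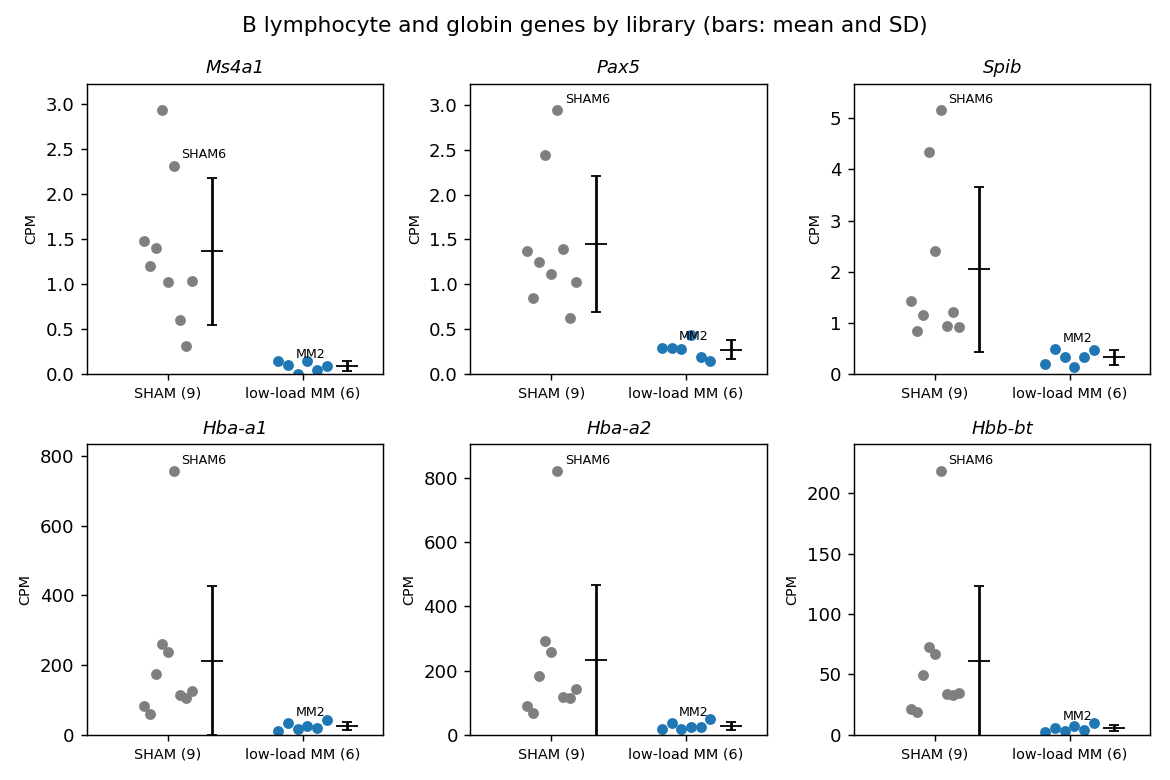
CPM of 3 B lymphocyte genes and 3 globin genes, 1 point per library, for SHAM (9 libraries) and low-load MM (6 libraries), with bars for the mean and SD, drawn from 0 upward. In each panel every low-load MM library lies below every SHAM library, and SHAM6 is the highest control in 5 of the 6 panels.

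Neurons, glia and vessels gave no calls in the edgeR test of these 15 libraries. Of 139 neuronal genes in 9 lists 0 passed the edgeR test, with 4 higher and 9 lower at an unadjusted p under 0.05, beside 5.4% and 4% of all genes, and a median log2 fold change of -0.04. DESeq2 called 2 of them as lower, Gfra2 and Scn11a. Scn11a, the sodium channel Nav1.9 of nociceptors, had 432 to 526 CPM against 504 to 650 CPM (log2 fold change -0.23 ± 0.06, edgeR adjusted p = 0.1089). Mrgprd, a receptor of non-peptidergic nociceptors, had 114 to 132 CPM against 119 to 146 CPM (log2 fold change -0.16 ± 0.05, edgeR adjusted p = 0.1901). Without SHAM6, Mrgprd and Scn10a passed (edgeR adjusted p = 0.0395 and 0.04209). Calca, which encodes the pain peptide CGRP, had 791 to 937 CPM against 678 to 927 CPM (log2 fold change 0.10, edgeR adjusted p = 0.7233).

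Injury markers of sensory neurons were high in 1 low-load MM library. Atf3, a factor switched on by axon damage, was at 14.7, 11.5, 17.5, 82.5, 11.7 and 6.75 CPM in MM1, MM2, MM3, MM4, MM6 and MM7, and at 11.8 to 27.0 CPM in SHAM (log2 fold change 0.68 ± 0.47, edgeR adjusted p = 0.7046). MM4 stood alone, and it was also the highest member for the injury genes Sprr1a (88.1 CPM), Gal (43.7 CPM), Npy (15.6 CPM) and Csf1 (46.0 CPM), for which the other 5 had at most 13.0, 10.7, 5.12 and 27.7 CPM. MM8, outside the comparison, had Atf3 at 84.8 CPM. Of 18 injury genes 0 passed the edgeR test, 1 at an unadjusted p under 0.05, and DESeq2 called 0.

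Of 38 glial genes 0 passed the edgeR test (1 at an unadjusted p under 0.05, and 0 by DESeq2), of 26 vessel genes 0 (1 and 0) and of 18 fibroblast genes 0 (1 and 0). Among 8 lists of cellular programmes, from heat shock to the circadian clock, 0 of 139 genes passed (8 by DESeq2) and 23 were higher at an unadjusted p under 0.05, of which 17 were cytosolic ribosomal proteins. All 24 measured ribosomal protein genes had positive fold changes, with a median of 0.22 on the log2 scale. Rpl18 had 95.3 to 129 CPM against 77.8 to 108 CPM (log2 fold change 0.33 ± 0.07, edgeR adjusted p = 0.05493). Ribosomal protein genes called as higher numbered 14 without SHAM6, 8 without MM2 and 7 by DESeq2. The E-box letters CACGTG were in 5 of 14 clock gene promoters (35.7%) and in 8.09% of all promoters, and of 16 clock genes 0 passed (0 at an unadjusted p under 0.05, and 0 by DESeq2).

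**Figure D4:**
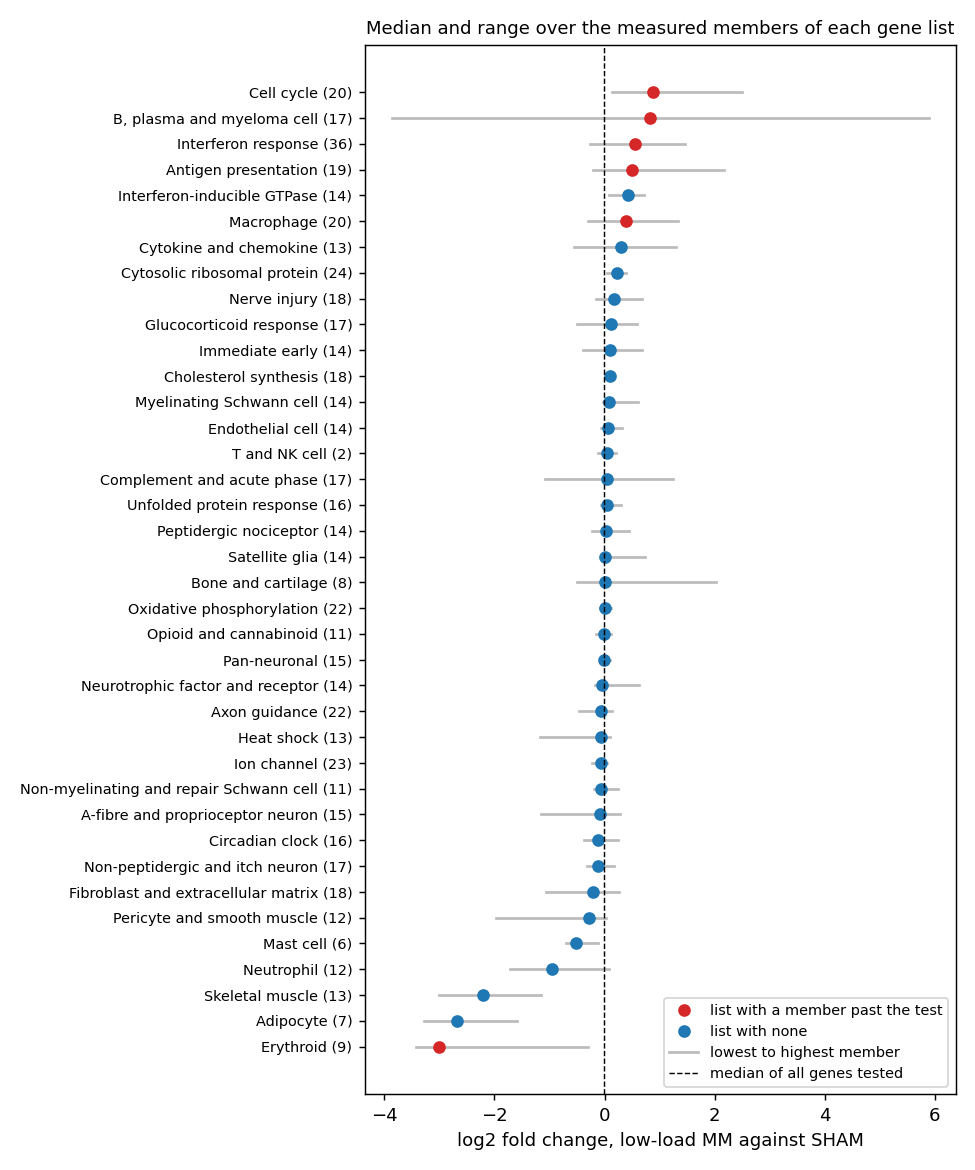
Median log2 fold change of low-load MM against SHAM (points) and the range over members (lines) for each of the 38 gene lists, with the number of measured members in brackets and the median of all tested genes as a dashed line. Lists with a called member are in red: cell cycle, B and plasma cell, interferon, antigen presentation and macrophage lie above 0 and erythroid below, while neuronal and glial lists lie near 0.

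The risen genes differed in how their excess over SHAM compared with that in MM5, MM8 and MM9. For each gene, the low-load mean minus the SHAM mean was expressed as a percentage of the mean of those 3 libraries minus the SHAM mean. Those 3 were scaled over all 18 libraries and the others over the 15 compared, so the percentages mix 2 scalings. Both use the same SHAM libraries, and the 2 sets of MM libraries were divided on Ighg2b, which sets the share of that gene and bears on those that follow it. The values are therefore a description and support nothing. Ighg2b itself stood at 8.24%, and the 53 risen genes at 7.06% to 48.1% with a median of 10.9%. The 6 risen plasma and myeloma cell genes lay between 8.2% and 10.55%, and the 3 antigen presentation genes between 8.36% and 11.19%. The 8 risen interferon response genes lay between 20.79% and 48.1%, with a median of 32.83%. Oasl2 had 84.8 CPM in low-load MM, 52.9 CPM in SHAM and 119 CPM in the 3 excluded libraries (48.1%), and Irf9 had 25.3, 17.5 and 39.1 CPM (36.24%). At the other end, H2-K1 had 116, 61.2 and 668 CPM (9.03%). Outside the lists, Ifi206 stood at 21.97%, Ifi213 at 18.01% and Ifi204 at 12.42%.

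**Figure D5:**
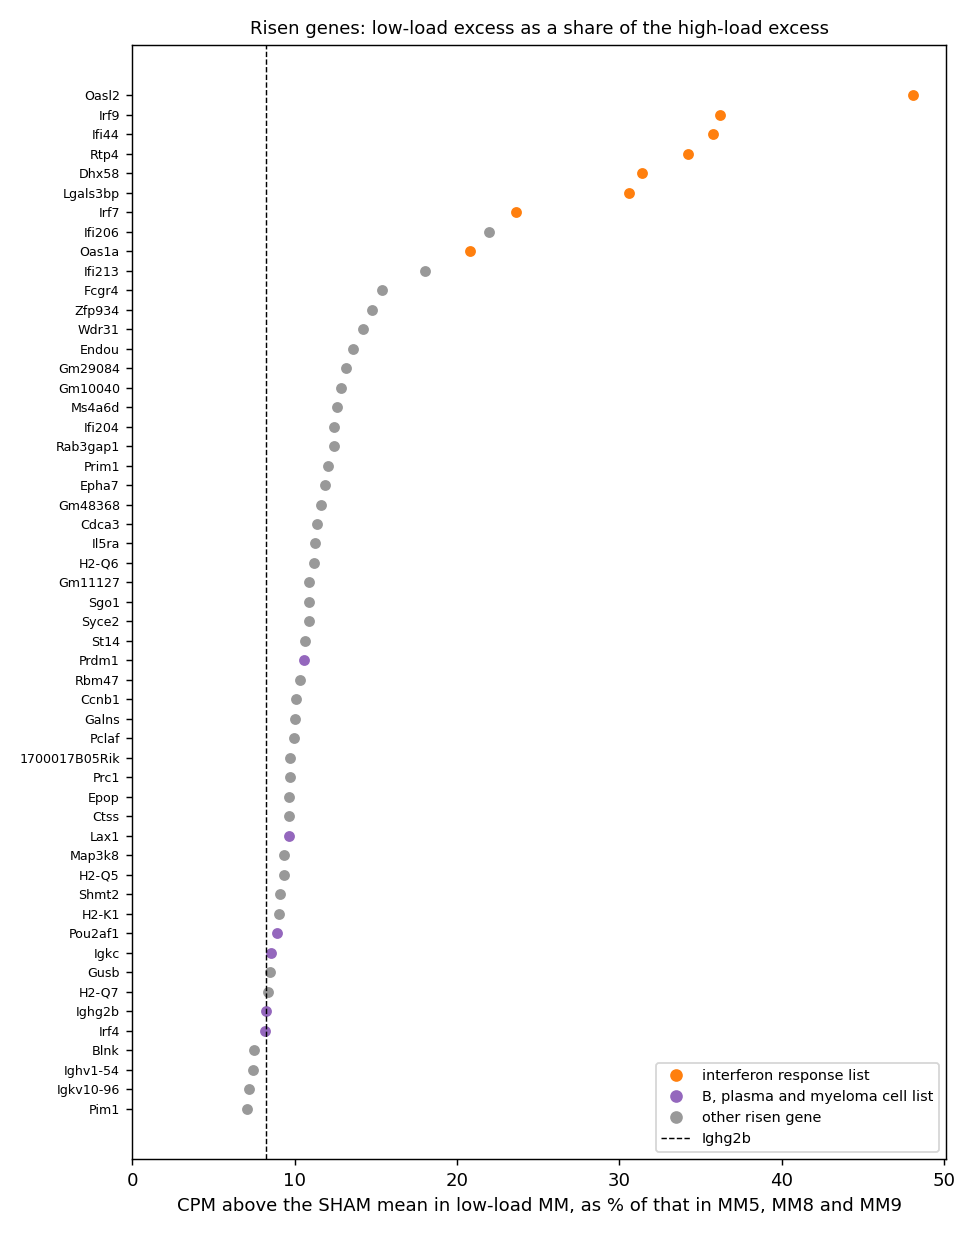
For each of the 53 risen genes, the mean CPM above SHAM in the 6 low-load MM libraries as a percentage of that in MM5, MM8 and MM9, with Ighg2b as a dashed line at 8.24%. Interferon response genes (orange) lie between 20.79% and 48.1%, and plasma and myeloma cell genes (purple) between 8.2% and 10.55%.

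MM2, whose Ighg2b lay inside the SHAM range, is 1 library, set apart by the transcript that the rule used, so its values are a description. Of the 53 risen genes, 15 were above every control in MM2, against 53, 52, 53, 48 and 52 in MM1, MM3, MM4, MM6 and MM7. Over all tested genes MM2 was above every control for 1089, and the other 5 for 1110 to 2599. Those 15 held Irf7, Ifi44, Oas1a and Lgals3bp of the interferon response list, and none of the plasma and myeloma cell list. The others were Ifi213, Ifi206, Ms4a6d, H2-Q5, the cell division gene Cdca3, the DNA primase gene Prim1, Syce2, St14, Gm11127, Galns and Epha7. The ephrin receptor Epha7 was at 8.05 CPM against at most 6.99 CPM. The 7 fallen genes were below every control in MM2 as in the other 5. The part of tumour cells in the rises was not tested.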

How the data were processed

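Total RNA of whole lumbar DRG was sequenced on DNBSEQ instruments. Per the submitters' processing notes, reads were quantified with Salmon 1.5.2 and the build was GRCm39; DESeq2 is also named, with no role given. The deposited files give an estimated count of reads per transcript, not scaled by the authors. Estimated counts were summed per gene over 48529 genes and rounded. Transcripts were linked to genes through GENCODE M21 (GRCm38) by Ensembl number; 3620 of 137562 had no gene and held 0.85% to 1.339% of reads, left out. Because the builds differ, positions are given for RefSeq promoters only. Genes kept by filterByExpr (15995) were normalised by TMM. The test was edgeR's robust quasi-likelihood F test (edgeR 4.0.16, R 4.3.3) without covariates, with a biological coefficient of variation of 0.212. The SE of a log2 fold change was worked back from that test, as its absolute value over the square root of F. The fit was tested on simulated data. CPM carry the TMM factors, and 2 was the prior count for log2 CPM. For MM5, MM8 and MM9 the factors came from all 18 libraries, and for the others from the 15 compared. DESeq2 1.42.0 was an alternative, with other scaling, filters and libraries. Tables and plots used Python 3.11.15, pandas 2.3.3 and matplotlib 3.10.9.

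The members and all 38 gene lists were chosen with earlier results of these data known. Named genes were called genes with a mean of at least 1 CPM and 5 of 6 members on the side of the change, leaving out predicted models and immunoglobulins: 10 rises and 10 falls by size, 5 by p in each direction, up to 2 called members per list and direction, the lowest p of each list without calls, and Ighg2b, Igkc, Mrgprd, Calca, Atf3 and Hba-a1. Others named were chosen after their values were seen. Some genes are not reported here. The reads per library limit low genes: 3 reads were 0.138 to 0.156 CPM, counting error only.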

Additional observations from a re-analysis of the deposited data

Results flagged for a closer look

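Single libraries lay far from the rest of their group (Dixon's criterion at 95%) in 16 of 110 groups of values examined; chance alone gives about 1 in 20. SHAM6 accounted for most: it was the highest control for Blnk (1.832 CPM), Hbb-bt (218.7 CPM, next 73.14), Hba-a1 (757.2 CPM, next 259.3), Hba-a2 (821.4 CPM), Retnlg (12.34 CPM), Btg2 (19.96 CPM), Alpl (13.93 CPM), Fdps (217.1 CPM) and Hmgcs1 (878.0 CPM), and the lowest for Ntrk2 (220.8 CPM). SHAM8 was highest for Ttn (2102.0 CPM), Adipoq (8.444 CPM) and Atf3 (26.96 CPM). Among the low-load MM libraries, MM4 stood apart for Atf3 (82.46 CPM, next 17.55) and Csf1 (46.02 CPM), and MM6 for Ttn (134.6 CPM). Ighg2b in the libraries not used in the comparison was 2279.895 (MM5), 2324.21 (MM8) and 4375.296 (MM9) RPM, above the SHAM range.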

How the results depend on the processing

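The number of genes that rose (53) and fell (7) moved with most alternatives: 207 and 52 with DESeq2, 29 and 3 with at least 1 CPM in 6 libraries, 19 and 3 without SHAM5 and SHAM9, 15 and 3 without SHAM7 and SHAM8, 87 and 13 with all 18 libraries fitted as 3 groups, and 433 and 38 with all 9 MM libraries. Without a filter on low counts 85 rose and 6 fell. Leaving out 1 library gave 25 to 187 that rose and 2 to 32 that fell: 187 and 11 without MM2, 186 and 32 without SHAM6, and 25 to 36 risen for each of the others except MM7 (51). The replicate number as a block gave 5 and 3, among them Ms4a1 and Pax5 and no interferon response gene (Irf7 edgeR adjusted p = 0.319). In that fit SHAM5, SHAM8 and SHAM9 had no same-numbered member and so did not inform the group difference. Same-numbered libraries correlated between -0.307 and 0.242 in their deviations from the group mean, and in 0 of 6 cases best with their own number. Whether same-numbered libraries shared a processing step was not tested. Scaling by DESeq2 size factors (52 and 7) or without tumour, cell cycle and red cell genes (53 and 7) changed little. All 53 and 7 were called by DESeq2, and 13 of the 53 without SHAM7 and SHAM8. No named gene changed direction: of the named genes' values under alternatives, 1189 kept their side of the threshold, 148 lost it and 25 gained it. The causes of these shifts were not tested. Depth limits low genes such as Ms4a1, Ighd, Cd22 and Pax5, with 11, 14, 31 and 34 reads over the low-load MM libraries.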

Other observations

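Outside the lists, Epha7, an ephrin receptor, was at 11.7, 8.05, 11.3, 8.62, 9.8 and 8.42 CPM in MM1, MM2, MM3, MM4, MM6 and MM7, and at 4.04 to 6.99 CPM in SHAM (log2 fold change 0.74 ± 0.12, edgeR adjusted p = 0.01128); the call held in all 15 fits that left out 1 library, and MM5, MM8 and MM9 had 31.7, 22.5 and 61.3 CPM. Prim1, the small subunit of DNA primase, had 4.66 to 6.2 CPM against 3.32 to 4.41 CPM, without overlap (edgeR adjusted p = 0.03012), and Galns, a lysosomal sulfatase, 4.65 to 5.65 CPM against 2.83 to 4.63 CPM (edgeR adjusted p = 0.04977); these were called in 7 and 3 of the 15 fits. Plcb3, a phospholipase C of sensory neurons, had 465 to 527 CPM against 513 to 596 CPM (log2 fold change -0.18 ± 0.04, edgeR adjusted p = 0.06094).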
